A study of Mus musculus with 21 samples.

Results

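The cytoplasmic ribosomal protein genes are the nuclear genes for the proteins of the ribosome that works in the cytosol. They were taken from the expression table by symbol: a name that begins with Rpl or Rps followed by a digit or p, with Rplp0, Rplp1, Rplp2 and Rpsa included, after 2 symbols of pseudogenes and 9 symbols of S6 kinases had been dropped. This gave 85 of the 11628 genes, 51 with an Rpl and 34 with an Rps name. Of these, 31 encode proteins of the small subunit and 46 proteins of the large subunit. The other 8 are paralogues, copies or a namesake: Rpl3l, Rpl7l1, Rpl22l1, Rpl36al, Rps27l, Rps4l, Rpl37rt, and Rps19bp1, whose product binds Rps19 and is not itself a ribosomal protein. The 77 standard genes are given apart from these 8 where the values differ.

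RNA was measured in 21 libraries of bone marrow progenitors from wild-type mice and mice with both copies of Etv6 mutated, a change written h.P214L in the design and ETV6 mt/mt in the sample labels. Etv6 is a transcriptional repressor of the ETS family, and people who inherit a mutated copy have few platelets and a raised risk of leukaemia. Haematopoietic stem cells (HSC) were sorted as lineage-negative, cKit+, Sca1+, FLK2-, CD150+ and CD38-. The multipotent progenitors that carry FLK2 (titled MPP4) were lineage-negative, cKit+, Sca1+ and FLK2+, and common lymphoid progenitors (CLP) were gated as IL7+, Flk2+ and low for both cKit and Sca1 among lineage-negative cells. Each of these populations had 3 wild-type and 4 mutant libraries. Wild-type mice were 12 weeks old for 2 libraries and 10 weeks old for 1 in each population. Mutant mice were 12 weeks old for 3 libraries and 10 weeks old for 1 in HSC and MPP4, and the mutant CLP libraries were split 2 and 2. The design names 3 wild-type and 4 mutant mice, but mutant replicate 4 is 10 weeks old in CLP and 12 weeks old in HSC and MPP4, so which libraries of different populations share a mouse is not settled. Replicate 2 is male in every group, and all other replicates are female. The sources used here do not give the strain.

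Each ribosome holds close to 1 copy of most of the standard proteins. Their messenger RNAs begin with a run of pyrimidines, the 5′ terminal oligopyrimidine tract, through which mTOR and Larp1 control their translation together, and Myc raises their transcription. Blood stem cells are known for a low rate of protein synthesis. Loss of 1 copy of any of several ribosomal protein genes causes Diamond-Blackfan anaemia, a failure of red cell production, and loss of RPS14 contributes to the anaemia of the 5q- syndrome. Free Rpl5 and Rpl11 bind Mdm2 and so raise p53, which is how a disturbed supply of ribosomal proteins reaches the cell cycle.

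Etv6 belongs to a family whose members bind DNA at a GGAA core, so the promoters of the genes were read for the letters CCGGAAG. The RefSeq promoters of the build GRCm38.p6, 300 bases from 250 before to 50 after the annotated start, held 64 of the 85 genes. The letters, on either strand, stood in 25 of these 64 genes (39.1%), in 1944 of 9227 other genes of the expression table (21.1%) and in 2683 of all 27025 genes of the promoter table (9.93%). Counted by promoter, 8.86% of the 32851 promoters held them. The run CTCTTTCC, a stretch of the kind found at pyrimidine tracts, stood in 10 of 64 genes (15.6%) against 3.59% of the other genes of the expression table, and AAGATGGC, a core of YY1 sites, in 6 of 64 (9.38%) against 5.51%; both were searched on both strands. The 3 motifs can lie in the same promoter and were counted separately. A match states only that the letters are present in this window. Of the 16 Diamond-Blackfan anaemia genes that had a promoter, 8 held CCGGAAG or its reverse complement, 5 of them within the 80 bases shown here.

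Those 5 are shown from 60 bases before to 20 bases after the start, 5′ to 3′ in the direction of the gene, with the motif in capitals. Rps27l, Rpl3l and Rpl7l1 follow because the results below turn on them.
Rpl11: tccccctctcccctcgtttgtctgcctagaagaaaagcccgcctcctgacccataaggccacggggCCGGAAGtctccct
Rpl26: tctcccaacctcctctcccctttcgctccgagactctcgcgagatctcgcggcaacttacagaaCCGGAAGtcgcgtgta
Rpl31: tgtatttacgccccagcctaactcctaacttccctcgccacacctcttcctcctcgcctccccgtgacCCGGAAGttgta
Rps7: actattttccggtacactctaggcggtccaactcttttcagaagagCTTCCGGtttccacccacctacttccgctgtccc
Rps10: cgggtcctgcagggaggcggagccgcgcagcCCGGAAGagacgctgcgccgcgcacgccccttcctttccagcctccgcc
Rps27l: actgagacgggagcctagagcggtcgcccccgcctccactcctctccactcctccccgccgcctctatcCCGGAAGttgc
Rpl3l: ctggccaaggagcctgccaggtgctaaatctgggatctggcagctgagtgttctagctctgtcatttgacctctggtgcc
Rpl7l1: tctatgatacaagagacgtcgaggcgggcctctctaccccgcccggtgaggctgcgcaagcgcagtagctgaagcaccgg

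The windows lie, in GRCm38.p6, at chr4:136053374-136053453 on the minus strand for Rpl11, chr11:68901506-68901585 on the plus strand for Rpl26, chr1:39367791-39367870 on the plus strand for Rpl31, chr12:28635934-28636013 on the minus strand for Rps7 and chr17:27635225-27635304 on the minus strand for Rps10. They lie at chr9:66946026-66946105 for Rps27l and chr17:24727766-24727845 for Rpl3l, both on the plus strand, and chr17:46782637-46782716 for Rpl7l1 on the minus strand. Each ends with the first 20 bases of a RefSeq transcript. RefSeq has 2 starts for Rps27l. The one shown lies within the annotated gene, from 66944624 to 66949522 on chromosome 9. The window of the other start holds no match. Rpl3l also has 2 starts, of which the first is shown. In Rpl11, Rpl26, Rpl31 and Rps27l the motif lay 5 to 10 bases past the start, and in Rps7 and Rps10 it began 14 and 29 bases before it. The promoters of Rpl3l and Rpl7l1 held no match in their 300 bases. Genes with and without the motif are compared beside the genotype results.

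Values are RPKM, read counts scaled to transcript length and to the mapped reads of the library, a scale meant for comparing levels between genes. The sources used here give neither the annotation behind the lengths nor the handling of reads that fit several genes, which limits such comparisons. Ribosomal protein messages were among the most abundant of the table: 74 of the 85 had a mean of at least 100 RPKM over the 21 libraries, and 84 reached 1 RPKM in every library. Rpl32, a protein of the large subunit, had the highest mean, 1143 RPKM, followed by Rpl13 at 955 and Rps14, the 5q- syndrome gene, at 907. The lowest were Rps19bp1 at 23.0, Rps4l, a copy of Rps4x, at 19.7 and Rpl3l, the paralogue of Rpl3 known from skeletal muscle and heart, at 1.97. The order of levels was nearly the same in all populations: Spearman's rho over the 85 genes lay between 0.987 and 0.999 for the 15 pairs of groups, with Rpl32 highest and Rpl3l lowest in all 6. The genes share their libraries and lengths, so these coefficients describe the table and carry no test.

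By role, the large-subunit genes ran from proteins of the GTPase-associated stalk to those of the 5S particle. Rplp0, the base of the stalk, stood at 799 ± 99.5 RPKM in wild-type HSC, 786 ± 52.7 in wild-type MPP4 and 675 ± 66.1 in wild-type CLP (SD, n = 3 each). Its partners Rplp1 and Rplp2 stood at 600.1 ± 139.6 and 548 ± 130.05 in wild-type HSC. Rpl5 and Rpl11, which carry the 5S RNA into the ribosome, stood at 177 ± 19.7 and 444 ± 118 there. Rpl10, which joins the large subunit last and is mutated in T-cell leukaemia, stood at 429 ± 74.9, and Rpl38, which is known for its part in the translation of Hox messages, at 371 ± 93.7. In the small subunit, Rps6, the target of S6 kinase, stood at 404 ± 45.8 and Rps19, the gene most often mutated in Diamond-Blackfan anaemia, at 395 ± 89.95. Rps3, at the entry of the messenger RNA, stood at 141 ± 25.8. Rps24, another anaemia gene, was low for a standard member at 49.6 ± 9.62, as was Rpl22 at 33.8 ± 3.97. The 18 anaemia genes ran from Rps24 to Rps29, at 682 ± 178.5, and those with the motif shown above stood at 85.3 ± 21.7 (Rpl26), 102 ± 23.0 (Rpl31), 448 ± 108 (Rps7), 468 ± 104 (Rps10) and, for Rpl11, as given above.

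Together the 85 genes held between 6.95% and 11.03% of the summed RPKM of a library, a 1.59-fold range. The wild-type HSC libraries held 8.05%, 8.46% and 11.03%, and the mutant HSC libraries 7.799%, 8.53%, 7.78% and 9.35%, in the order of their replicate numbers. In MPP4 the shares were 8.998%, 8.27% and 9.68% in wild type and 7.25%, 7.99%, 8.62% and 8.65% in the mutant. In CLP they were 8.38%, 6.95% and 8.71% in wild type and 7.71%, 8.26%, 9.95% and 8.39% in the mutant. Wild-type HSC replicate 3 stood above every other library, and the ranges of wild-type and mutant libraries overlapped in each population. The highest library was replicate 3, a 10-week-old female, in 4 of the 6 groups. In mutant HSC replicate 3, of the same age and sex, was the lowest library, at 7.78%.

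**Figure D1:**
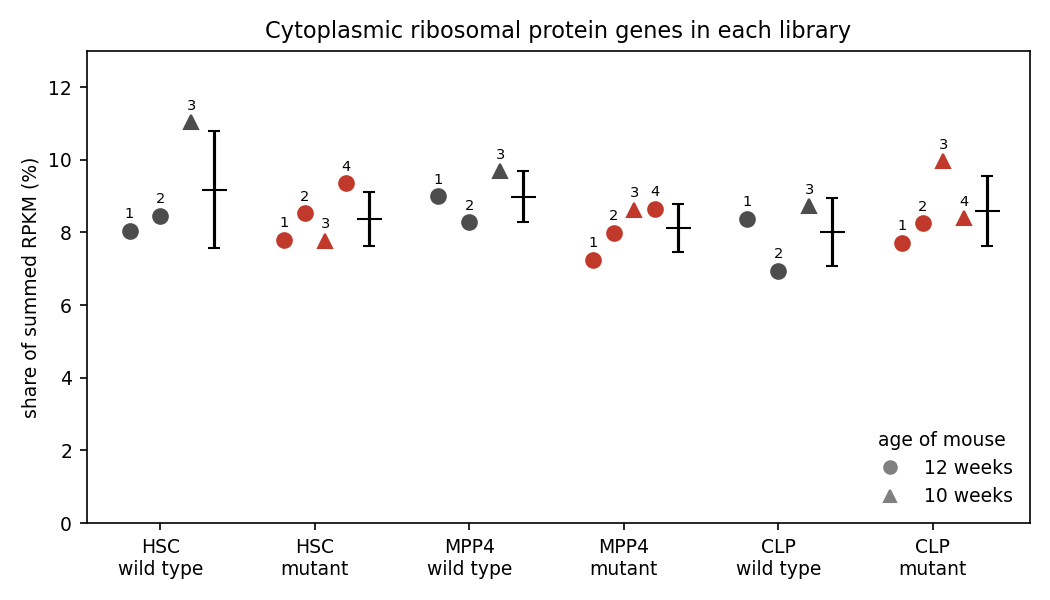
Share of the summed RPKM of each library held by the 85 cytoplasmic ribosomal protein genes (y axis, percent) in the 6 groups (x axis); numbers are replicate numbers, circles are 12-week-old and triangles 10-week-old mice, grey is wild type and red mutant, and the bar beside each group is mean ± SD. The shares ran from 6.95% in wild-type CLP replicate 2 to 11.03% in wild-type HSC replicate 3, and the genotypes overlapped in each population.

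The genes varied together from library to library. Each gene was taken as its deviation from its group mean on the log2(RPKM + 1) scale. Its correlation with the median of the other members was computed over the 21 libraries. These correlations had a median of 0.954, and were over 0.9 for 65 genes and over 0.8 for 78. All 85 genes lay above their group mean in wild-type HSC replicate 3, whose median deviation was 0.34, and none lay above it in wild-type HSC replicate 1 (-0.23) or mutant CLP replicate 1 (-0.21). Those under 0.5 were Rpl3l (0.188), Rpl7l1 (0.332) and Rps19bp1 (0.499), all outside the standard 77. These coefficients are a description, since the points share libraries and the depth of each. Members that share sequence may also share reads, but how such reads were counted is not given. The median SD of a gene within its group was 0.20 log2 units.

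The 2 subunits kept a nearly fixed ratio. The summed RPKM of the 31 small-subunit genes divided by that of the 46 large-subunit genes lay between 0.696 and 0.731 in all 21 libraries, a 1.05-fold range beside the 1.59-fold range of the share itself. It averaged 0.705 ± 0.0115 in wild-type and 0.704 ± 0.00912 in mutant HSC, 0.707 ± 0.00670 and 0.706 ± 0.00857 in MPP4, and 0.707 ± 0.0106 and 0.717 ± 0.00954 in CLP (SD, n = 3 wild type and 4 mutant). The genotypes overlapped in each population.

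Other gene groups deviated in the same direction as the ribosomal proteins in some libraries. In wild-type HSC replicate 3 the median deviation was 0.13 for 82 genes of the respiratory chain and ATP synthase, 0.07 for 76 mitochondrial ribosomal proteins and -0.11 for the 79 ribosome biogenesis factors of a list chosen for this tissue, beside 0.34 for the cytoplasmic ribosomal proteins. In mutant MPP4 replicate 1, where the ribosomal proteins lay at -0.22, the first 2 of these lists lay at -0.17 and -0.12. In wild-type CLP replicate 2 the values were -0.24 for ribosomal proteins, -0.19 and -0.13, and 0.09 for biogenesis factors. Their part in the results was not tested. Depth cannot be read from the RPKM values, which summed to between 337818 and 376135 per library with 2 to 90 genes at 0, and RNA quality is not recorded in the labels used here.

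**Figure D2:**
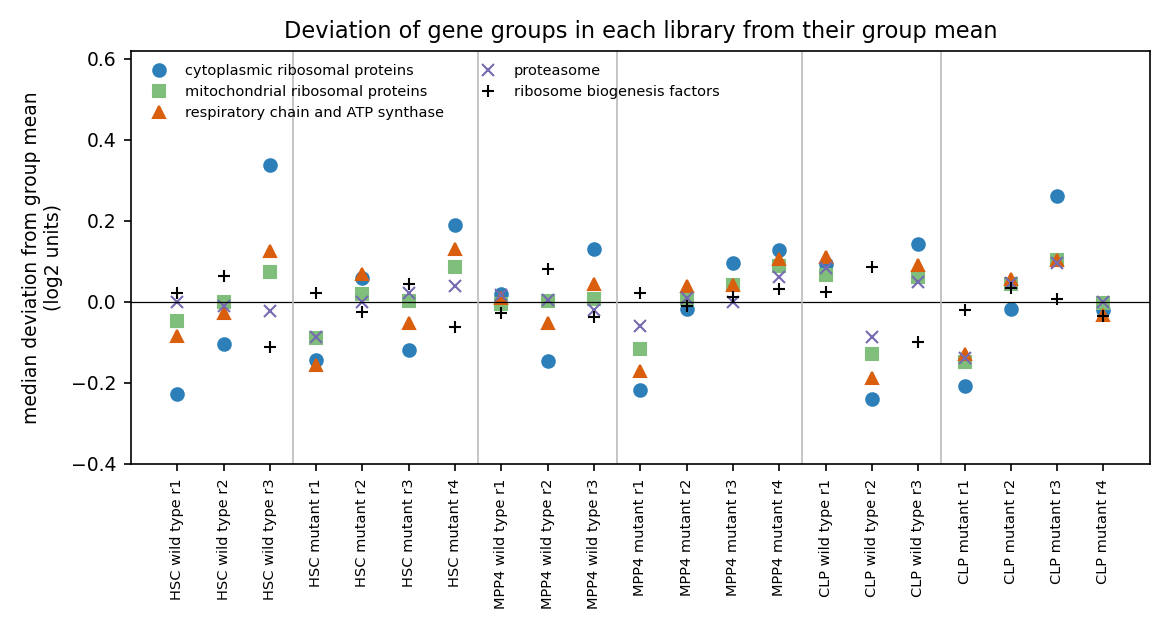
Median deviation of each gene group from its group mean in each library (y axis, log2 units) for the 21 libraries (x axis); each symbol is 1 gene group. Ribosomal proteins, in blue, spread most, from -0.24 to 0.34, and mitochondrial ribosomal proteins and the respiratory chain lay on the same side of 0 in the libraries at both ends.

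In stem cells the ribosomal protein messages of mutant mice lay slightly under those of wild type, with no gene past the test. The median log2 difference, mutant minus wild type on the log2(RPKM + 1) scale, was -0.16 over the 85 genes and 0.01 over all 11496 genes tested, and 83 of 85 were negative. In limma with Benjamini-Hochberg adjustment over all genes, 0 of 85 were called at an adjusted p under 0.05, beside 0.0522% of all genes (0.0087% higher and 0.0435% lower), and 0 had an unadjusted p under 0.05, beside 4.45% of all genes. The libraries of the genotypes overlapped for all 85; among all genes, 1.9% had mutant libraries entirely below and 3.36% entirely above wild type.

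Rps19 stood at 332, 356 and 498 RPKM in wild-type HSC and at 291, 365, 317 and 369 in mutant HSC. Of the mutant libraries 2 lay below all wild-type libraries and 2 between the middle and the highest of them, and the log2 difference was -0.22 ± 0.15 (SE), with a 95% interval from -0.53 to 0.08. Rpl11 stood at 356, 399 and 578 in wild type and 336, 406, 347 and 459 in the mutant, a difference of -0.18 ± 0.16. For both genes wild-type replicate 3 was the highest of the 7 libraries.

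The largest differences in HSC were those of Rpl36al, the autosomal copy of the X-linked Rpl36a, at -0.26 ± 0.13 (limma, unadjusted p = 0.0551), Rpl38 at -0.26 ± 0.15 and Rpl35 at -0.24 ± 0.15; the Benjamini-Hochberg adjusted p was 1.00 for each. The median was -0.17 over the 31 small-subunit and -0.16 over the 46 large-subunit genes, all 77 negative. It was -0.15 over the 18 Diamond-Blackfan anaemia genes, also all negative. Rpl22 was the least changed standard gene at -0.04, and Rpl3l and Rpl7l1 were the 2 positive ones, at 0.20 ± 0.20 and 0.02 ± 0.08. Genes with CCGGAAG in the promoter had a median of -0.17 (25 genes) and those without one of -0.14 (39 genes).

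The difference in HSC rested on 1 library. Without wild-type replicate 3 the median over the 85 genes was -0.000389, and without wild-type replicate 1 it was -0.27. With the 12-week-old mice alone, a choice made after seeing the data, it was 0.04, and with quantile normalization it was -0.04. Neutrophil markers had 6 of 9 genes negative in this comparison, a median of -1.23 and 0 called. Their summed share was 0.0458% to 0.406% in wild type and 0.0265% to 0.0724% in the mutant, and the markers did not all go 1 way: Mpo stood at 3.51 ± 0.791 RPKM in wild type and 31.9 ± 58.1 in the mutant, and Elane at 0.432 ± 0.304 and 4.93 ± 9.20. The highest of these shares was wild-type replicate 2, not replicate 3. Red cell markers had 8 of 12 positive and shares of 0.248% to 1.43% against 0.285% to 1.10%. The part of either marker list in the result was not tested. In bulk samples fewer cells of a type and less RNA per cell cannot be told apart.

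In MPP4 the fitted difference was negative for all 85 genes, and small. The median log2 difference was -0.17 against 0.02 over all genes, and limma with Benjamini-Hochberg adjustment called 0 of 85, beside 0.217% of all genes (0.104% higher and 0.113% lower). Rpl5 alone of the 85 had an unadjusted p under 0.05, beside 8.14% of all genes. It stood at 184, 178 and 188 RPKM in wild type and 153, 159, 161 and 173 in the mutant, so that every mutant library lay below every wild-type library. The log2 difference was -0.18 ± 0.09 (SE), with a 95% interval from -0.37 to -0.0003 and a limma p of 0.0497 (Benjamini-Hochberg adjusted p = 0.613). Of the 85 genes, Rpl5 was the 1 whose genotypes did not overlap, beside 3.41% of all genes that were lower in every mutant library and 6.68% that were higher.

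The largest difference was that of Rps4l, which stood at 19.6, 16.8 and 27.2 RPKM in wild type and 6.67, 16.0, 21.1 and 15.5 in the mutant. Its libraries overlapped and the difference was -0.56 ± 0.32, with a 95% interval from -1.23 to 0.11. Rpl3l differed by -0.28 ± 0.20 and Rpl31, a Diamond-Blackfan anaemia gene, by -0.25 ± 0.15. Rps14 stood at 951, 839.8 and 1054 in wild type and 612, 864, 879 and 921 in the mutant, a difference of -0.22 ± 0.18. Mutant replicate 1 was the lowest library for Rps14, as it was for Rps4l.

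The medians were -0.18 over the small-subunit, -0.17 over the large-subunit and -0.18 over the anaemia genes. With the motif in the promoter the median was -0.17, and without it -0.18. Leaving out 1 library at a time moved the median over the 85 genes between -0.24, without wild-type replicate 2, and -0.10, without mutant replicate 1, and quantile normalization gave -0.10. Of other lists, 73 of 82 genes of the respiratory chain and ATP synthase were negative (median -0.10), of which Cox6a2, also a marker of plasmacytoid dendritic cells, was called lower (-1.67), as were 64 of 76 mitochondrial ribosomal proteins (-0.07) and 35 of 39 proteasome genes (-0.11), with 0 called in these 2 lists.

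Red cell markers had the opposite sign. All 12 measured were positive in mutant MPP4 with a median of 1.45 and 0 called, and their summed share was 0.140% to 0.824% in wild type and 0.654% to 1.39% in the mutant. Hba-a2, an alpha globin gene, stood at 624.7 ± 556 RPKM in wild type (n = 3) and 1216 ± 458 in the mutant (n = 4). Of 9 neutrophil markers 5 were positive (median 1.85, 0 called), with shares of 0.157% to 0.303% and 0.216% to 0.653%. Of the stem cell markers 9 of 10 were positive, with a median of 0.51 and 2 called higher, and their summed share was 0.0248% to 0.0326% in wild type and 0.0457% to 0.0527% in the mutant, with no overlap. Hlf, a stem cell transcription factor and 1 of those called, rose by 0.98. Of 9 B-lineage markers 6 were negative and 3 positive (median -0.18), and Blnk (-1.04) and Blk (-1.18) were called lower. Of 8 plasmacytoid dendritic cell markers 5 were negative and 3 positive (median -0.13), and Cox6a2 and Irf8 (-0.79) were called lower. Of 8 CLP markers 7 were negative (median -0.48, 0 called), and of 8 megakaryocyte markers 7 were positive (median 0.77, 1 called higher). The part of these marker lists in the ribosomal protein values was not tested.

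In CLP the sign was the opposite: 79 of 85 genes were positive, with a median of 0.13 against 0.00 over all genes. Limma with Benjamini-Hochberg adjustment called 0 of 85, beside 0% of all genes. None of the 85 had an unadjusted p under 0.05, against 507 of all genes. The libraries of the genotypes overlapped for all 85 genes, beside 1.94% of all genes entirely higher and 2.18% entirely lower in the mutant. Rpl32 stood at 1077, 739 and 1182 RPKM in wild type and 959, 1157, 1528 and 1168 in the mutant, with a log2 difference of 0.28 ± 0.18 (SE). Wild-type replicate 2 was the lowest and mutant replicate 3 the highest library.

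Rpl22l1 had the largest difference, 0.34 ± 0.20, with a 95% interval from -0.07 to 0.75. It stood at 122, 69.1 and 129 in wild type and 122, 128, 150.3 and 124 in the mutant, and wild-type replicate 2 was the low library. Rps4l differed by -0.32 ± 0.32. The median was 0.14 over the 31 small-subunit genes, all positive, 0.11 over the 46 large-subunit genes, of which 43 were positive, and 0.14 over the 18 anaemia genes, all positive. With the promoter motif the median was 0.14, and without it 0.12.

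The median over all 85 genes in CLP was 0.0172 without wild-type replicate 2 and 0.20 without wild-type replicate 3. With quantile normalization it was 0.06, and with the 12-week-old mice alone 0.08. All 9 B-lineage markers were negative in mutant CLP, with a median of -0.57, 0 called and summed shares of 0.115% to 0.146% in wild type and 0.0610% to 0.128% in the mutant. Neutrophil markers had 7 of 9 positive (median 0.29, 0 called). Ebf1, a transcription factor that sets B-cell fate, stood at 8.89 ± 4.01 RPKM (n = 3) and 5.19 ± 3.63 (n = 4). Of the other lists, 69 of 82 genes of the respiratory chain and ATP synthase (median 0.09) and 62 of 76 mitochondrial ribosomal proteins (0.08) were positive, with 0 called. The part of these lists in the result was not tested.

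Whether the genotype difference differed between populations was tested for each gene as a difference of differences. Between CLP and MPP4 all 85 genes were positive, with a median of 0.29 against -0.02 over all genes. Between CLP and HSC 83 of 85 were positive, with a median of 0.28 against -0.01. Limma with Benjamini-Hochberg adjustment called 0 of 85 in both, beside 0% and 0.0087% of all genes, and 0 of the 85 had an unadjusted p under 0.05 in either, beside 3.84% and 3.65% of all genes.

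The smallest unadjusted limma p was 0.0549 between CLP and MPP4, where Rps27l differed by 0.47 ± 0.23 (SE), and 0.0515 between CLP and HSC. In the second of these Rpl32 had the largest difference, 0.50 ± 0.26, with a 95% interval from -0.03 to 1.04. Between MPP4 and HSC the median was 0.00, 42 genes were positive and 43 negative, and 0 were called beside 0% of all genes. These 3 tests share libraries with each other and with the differences within populations. The medians moved with single libraries. Between CLP and MPP4 the median was 0.18 without wild-type CLP replicate 2 and 0.37 without wild-type MPP4 replicate 2. Between MPP4 and HSC it was -0.16 without wild-type HSC replicate 3 and 0.10 without wild-type HSC replicate 1. Without wild-type HSC replicate 3 the median between CLP and HSC was 0.11, and with the 12-week-old mice alone it was 0.03.

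**Figure D3:**
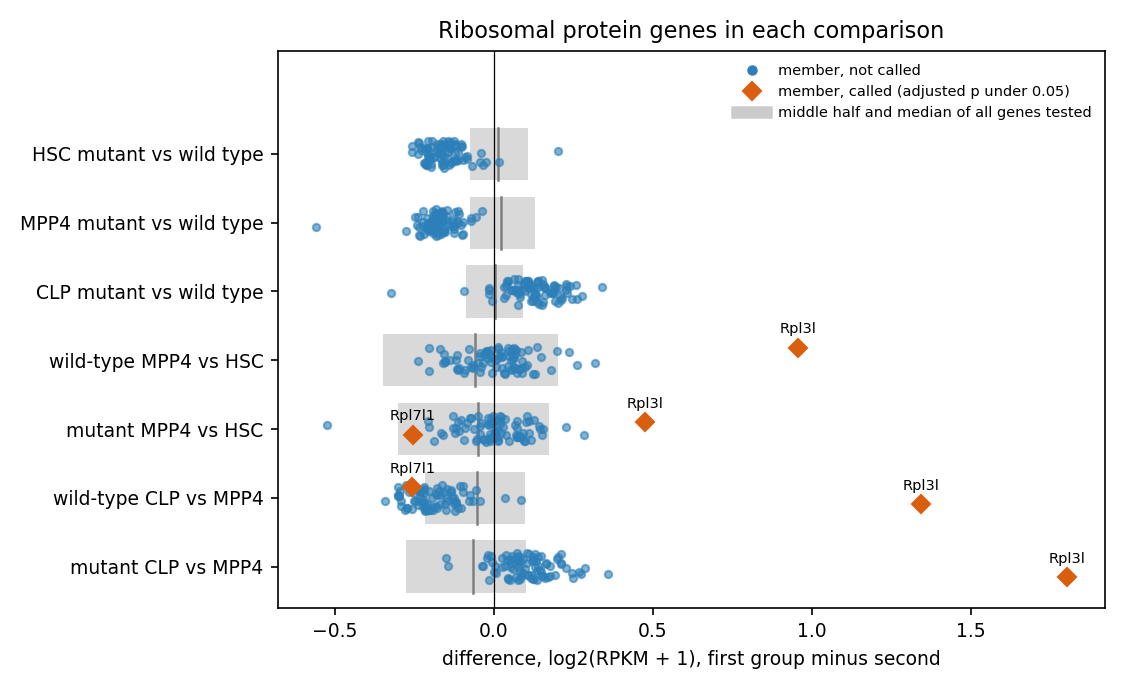
Fitted difference of each of the 85 genes (x axis, log2(RPKM + 1), first group minus second) in 7 comparisons (y axis); blue points were not called, orange diamonds had a Benjamini-Hochberg adjusted p under 0.05 in limma, and grey bars span the interquartile range of all genes tested, with their median as a line. The genes form narrow clouds with medians of -0.16 and -0.17 in mutant HSC and MPP4 and 0.13 in mutant CLP, and Rpl3l and Rpl7l1 are the called genes in the steps between populations.

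Between populations, few ribosomal protein genes passed the test, while a large share of all genes did. From HSC to MPP4 in wild type, 1 of 85 genes was called in limma after Benjamini-Hochberg adjustment, against 39.3% of all genes (16.1% higher and 23.3% lower), and the median was 0.02 against -0.06. In the mutant 2 of 85 were called, against 39.1% (16% higher and 23.1% lower), with a median of 0.00 against -0.05. From MPP4 to CLP in wild type 2 of 85 were called, against 13.1% (4.77% higher and 8.38% lower), and in the mutant 1 of 85, against 24.3% (7.86% higher and 16.4% lower). The populations themselves were distinct: Slamf1, which encodes CD150, stood at 22.6 ± 5.26 RPKM in wild-type HSC and 0.849 ± 0.534 in MPP4, Flt3, which encodes FLK2, at 14.9 ± 1.91 and 384 ± 33.4, and Il7r at 11.6 ± 4.01 in MPP4 and 91.3 ± 3.73 in CLP (SD, n = 3 each).

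From MPP4 to CLP the 2 genotypes had medians of opposite sign. In wild type 82 of 85 genes were negative with a median of -0.20, and in the mutant 75 of 85 were positive with a median of 0.11, beside -0.05 and -0.06 over all genes. The wild-type median was -0.08 without CLP replicate 2, and the mutant median 0.01 without CLP replicate 3. The difference between these 2 steps is the same quantity as the genotype difference between CLP and MPP4 given above, for which 0 genes were called. In wild type the CLP libraries lay entirely below the MPP4 libraries for 15 of 85 genes, a share close to the 18.8% of all genes. Among the 15 were Rps6, Rpl3, Rpl4, Rpl5, Rpl22 and Rplp0. In the mutant the CLP libraries lay entirely below for 0 of 85, beside 16.4% of all genes.

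Wild-type CLP and MPP4 libraries of the same replicate number deviated together. With the number as a block 4 of 85 genes were called in this step, beside 17.3% of all genes. They were Rpl3l and Rpl7l1, which were also called without the block, and Rpl5 and Rps6. Rpl5 stood at 184, 178 and 188 RPKM in wild-type MPP4 and 159, 145 and 164 in wild-type CLP. Every CLP library lay below every MPP4 library, by -0.23 on the log2 scale (limma with Benjamini-Hochberg adjustment, adjusted p = 0.1196 without the block and 0.0439 with it). Rps6 stood at 405, 365 and 418 in MPP4 and 345, 280.5 and 348 in CLP, a difference of -0.29 (adjusted p = 0.140 without the block and 0.0256 with it).

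Rpl3l was the 1 member that rose at each step in both genotypes, from a very low level. In wild-type HSC it was listed at 0, 0.0750 and 0.155 RPKM, in MPP4 at 0.809, 1.13 and 1.355, and in CLP at 4.29, 3.06 and 5.91. In the mutant it stood at 0.375, 0.113, 0.161 and 0.320 in HSC, 1.05, 0.865, 0.554 and 0.477 in MPP4, and 4.68, 3.32, 5.25 and 7.497 in CLP. The ranges of the 3 populations did not overlap in either genotype, beside 20.4% and 15.3% of all genes that were entirely higher in MPP4 than in HSC, and 11.2% and 9.05% in CLP than in MPP4, in wild type and mutant. Those of the 2 genotypes overlapped in each population. Even in CLP, Rpl3l reached at most 1.78% of the level of Rpl3.

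The log2(RPKM + 1) differences of Rpl3l understate the change because its values are near or under 1. In limma with Benjamini-Hochberg adjustment they were 0.96 ± 0.22 (SE, adjusted p = 0.00140) from HSC to MPP4 and 1.34 ± 0.22 (adjusted p = 1.74e-04) from MPP4 to CLP in wild type, and 0.48 ± 0.19 (adjusted p = 0.0494) and 1.80 ± 0.19 (adjusted p = 3.82e-07) in the mutant. The call from HSC to MPP4 in the mutant was the weakest: it was lost without any 1 of 7 of the 8 libraries and stood only without mutant MPP4 replicate 4. With a pseudocount of 0.1 in place of 1 the wild-type differences were 2.84 and 1.89. Rpl3l (chromosome 17, 24727826 to 24736143, plus strand, GRCm38) shared 0% of its 50-base windows with transcripts of other genes, Rpl3 among them, and its exons overlapped no other coding gene.

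Rpl7l1, the paralogue of Rpl7 (chromosome 17, 46773907 to 46782656, minus strand, GRCm38), went the other way. It stood at 71.0, 70.2 and 72.1 RPKM in wild-type HSC, 59.8, 61.98 and 63.0 in MPP4 and 51.3, 49.8 and 53.2 in CLP. In the mutant it stood at 68.4, 70.03, 80.0 and 69.5 in HSC, 53.6, 65.5, 59.1 and 62.5 in MPP4, and 48.3, 55.9, 55.2 and 56.7 in CLP. Wild-type libraries were lower in each later population with no overlap, beside 30.6% of all genes entirely lower in MPP4 than in HSC (22.3% in the mutant), and in the mutant MPP4 and CLP overlapped.

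The step of Rpl7l1 from HSC to MPP4 was -0.20 ± 0.08 in wild type (limma with Benjamini-Hochberg adjustment, adjusted p = 0.0508) and -0.26 ± 0.07 in the mutant (adjusted p = 0.00621). That from MPP4 to CLP was -0.26 ± 0.08 in wild type (adjusted p = 0.0397) and -0.15 ± 0.07 in the mutant (adjusted p = 0.125). The call in wild-type CLP was lost without any 1 of its 6 libraries, with medians of ratios as the scale (adjusted p = 0.0851), with the 2 groups alone in the fit (0.0650) and with the 12-week-old mice alone (0.140). Rpl7l1 had the smallest SD within groups of the 85 genes, 0.09 log2 units. It shared 9.03% of its windows with other transcripts.

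**Figure D4:**
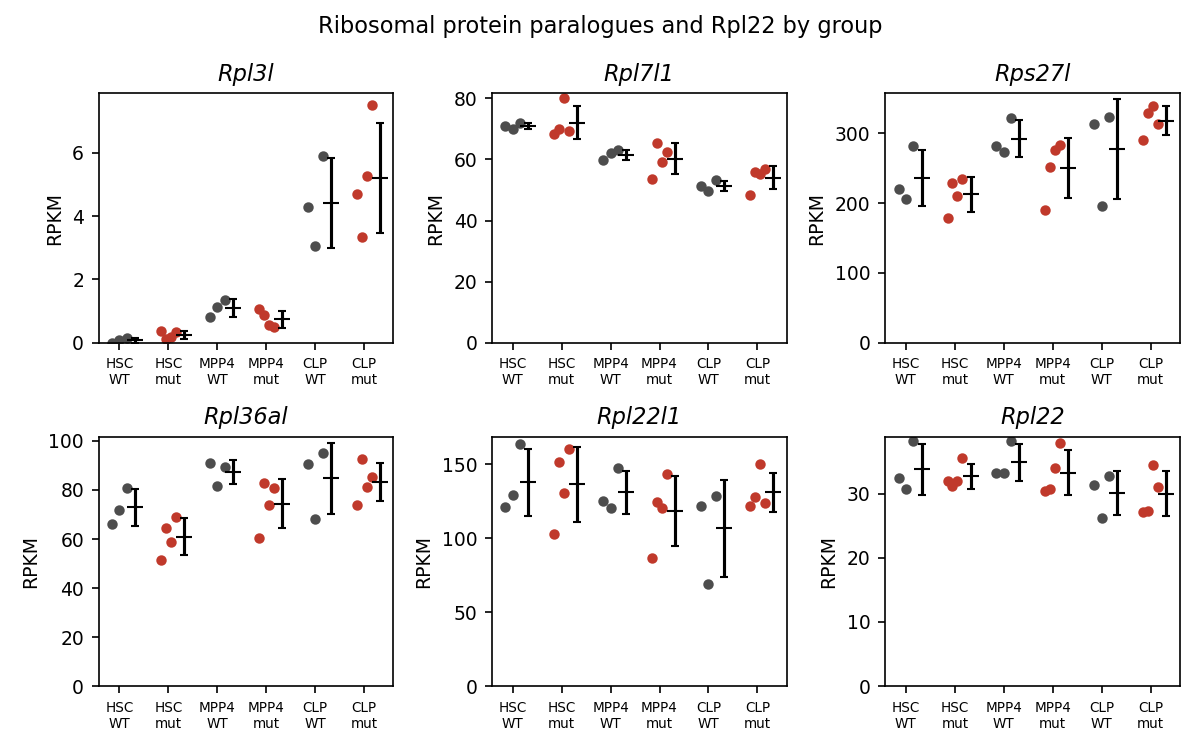
RPKM (y axis, a scale of its own in each panel, from 0) of Rpl3l, Rpl7l1, Rps27l, Rpl36al, Rpl22l1 and Rpl22 in each library of the 6 groups (x axis); grey points are wild type, red points mutant, and the bar beside each group is mean ± SD. Rpl3l lay under 1.4 RPKM in all HSC and MPP4 libraries and between 3.06 and 7.497 in CLP, and Rpl7l1 ran from 70.2 to 72.1 RPKM in wild-type HSC and from 49.8 to 53.2 in wild-type CLP.

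Among the other paralogues, Rps27l, a p53 target, took a larger part of its pair in the later populations. Rps27l divided by Rps27 was 0.478 ± 0.0892 in wild-type HSC, 0.661 ± 0.0727 in MPP4 and 0.688 ± 0.0340 in CLP (SD, n = 3 each), and 0.481 ± 0.0154, 0.642 ± 0.0388 and 0.675 ± 0.0576 in the mutant (n = 4 each). In both genotypes the HSC ratios lay entirely below those of MPP4 and CLP, at most 0.564 against at least 0.595. This ratio was 1 of several taken and has no test. Of single genes, 20.4% in wild type and 15.3% in the mutant were entirely higher in MPP4 than in HSC. Rps27l itself did not pass the test at any step. Its largest difference was 0.36 ± 0.15 from MPP4 to CLP in the mutant (limma with Benjamini-Hochberg adjustment, adjusted p = 0.0894), where the libraries ran from 190.1 to 284 RPKM in MPP4 and from 291 to 339 in CLP and did not overlap. This was 1 of 2 genes of 85 that were entirely higher in mutant CLP, with Rpl3l, beside 9.05% of all genes. Rps27l shared 13.7% and Rps27 63.1% of its windows with other transcripts.

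Rpl22, a protein whose loss is known to arrest T-cell development and to raise its paralogue Rpl22l1, stood under that paralogue in 21 of 21 libraries. Rpl22l1 divided by Rpl22 lay between 2.63 and 4.86, with means of 4.07 ± 0.300 in wild-type HSC, 3.75 ± 0.119 in MPP4 and 3.48 ± 0.735 in CLP, and 4.16 ± 0.704, 3.55 ± 0.517 and 4.38 ± 0.297 in the mutant. The genotypes overlapped in HSC and MPP4. In CLP the wild-type ratios ran from 2.63 to 3.93 and the mutant ratios from 3.98 to 4.68, so that they did not overlap, though neither gene was called. This contrast was picked out after its values were seen and has no test, and Rpl22l1 shared 57.3% of its windows with other transcripts, Rpl22 5.19%.

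Rpl36al rose by 0.28 on the log2 scale from HSC to MPP4 in the mutant with the replicate number as a block. Its adjusted p (limma with Benjamini-Hochberg adjustment) was 0.00544 with the block and 0.0618 without it. The block also takes in the CLP libraries, where mutant replicate 4 is 10 weeks old, against 12 weeks in HSC and MPP4. So the number does not mark 1 mouse across all populations. Rpl36al stood at 51.3, 64.5, 58.8 and 69.0 RPKM in mutant HSC and 60.3, 82.8, 74.0 and 80.8 in mutant MPP4. Each MPP4 library lay above the HSC library of the same number, while the ranges overlapped. Rps4l fell in the same fit by 0.53 on the log2 scale (adjusted p = 0.00557 with the block and 0.176 without it), from 13.2, 21.8, 22.6 and 25.7 RPKM to 6.67, 16.0, 21.1 and 15.5. Rpl3l and Rpl7l1 were also called with the block (adjusted p = 0.0412 and 0.00210), which makes 4 of 85, beside 43.8% of all genes in that fit.

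Some ribosomal protein genes have names that fall outside the rule. Fau, the fusion gene of a small-subunit protein and a ubiquitin-like protein, stood at 151 ± 29.0 RPKM in wild-type and 131 ± 18.4 in mutant HSC, 158 ± 20.4 and 138 ± 18.3 in MPP4, and 139 ± 21.7 and 153 ± 19.1 in CLP (SD, n = 3 wild type and 4 mutant). Gnb2l1, the scaffold protein also called Rack1, stood at 235 ± 20.02 and 213 ± 11.04 in HSC, 252 ± 8.87 and 229 ± 12.02 in MPP4, and 221 ± 16.3 and 231 ± 32.5 in CLP. Mutant means lay under wild type in HSC and MPP4 and above it in CLP for both genes, and neither was called in any of the 3 populations.

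None of the genes listed as building, using or controlling ribosomes passed the test between genotypes, which few genes of any kind passed. Of 79 ribosome biogenesis factors, 16 genes of RNA polymerase I, 47 translation factors, 24 regulators of growth and of these messages, and 9 genes of the p53 response to nucleolar stress, 0 were called between genotypes in any population in limma with Benjamini-Hochberg adjustment. Of all genes, 0.0522% were called in HSC, 0.217% in MPP4 and 0% in CLP. The medians of the biogenesis factors were 0.00, -0.07 and -0.02 in HSC, MPP4 and CLP, and those of the translation factors -0.07, -0.07 and 0.02.

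Some of them changed between populations. From HSC to MPP4 in wild type 10 biogenesis factors were higher and 2 lower, among them Nhp2 (0.50), a protein of the particles that modify ribosomal RNA, and Nmd3 (0.67), the export adaptor of the large subunit, and in the other direction Sbds (-0.24), which releases Eif6 from the large subunit. Tcof1, which supports transcription of ribosomal RNA, was higher by 0.73. Of the translation factors 5 were higher and 3 lower, including Eif4ebp1 (-0.46), the mTOR-controlled brake on cap-dependent translation, and Eif4a2 (-0.65). Myc rose from 103 ± 5.43 to 155 ± 13.2 RPKM and Mycn fell from 121 ± 24.97 to 18.2 ± 0.919, with 3 regulators higher and 3 lower in all.

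Of the p53 response genes, Cdkn1a, the cell cycle inhibitor p21, rose from 2.16 ± 0.355 RPKM in wild-type HSC to 12.1 ± 0.479 in MPP4 and 42.9 ± 12.95 in CLP, and Phlda3 was higher by 1.79 in MPP4, while Sesn2 (-0.92) and Ccng1 (-0.50) were lower there. From MPP4 to CLP in wild type Eif4ebp1 was lower again, by -0.67, and 2 biogenesis factors were lower. The differences named here passed the limma test after Benjamini-Hochberg adjustment, the 39.3% and 13.1% of all genes called in these steps being the background.

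Near-identical copies limit what single members can show. Over the longest annotated coding transcript of each member, a median of 40.2% of the 50-base windows also stood in transcripts of other genes. The share was 50% to 90% for 29 members and under 50% for 56, of which 10 were under 10%. The sources used here do not say how reads that fit several genes were counted. The exons of 16 members overlapped those of another coding gene, and the library kit does not mark strand. The members lie on 19 chromosomes, 14 of them on chromosome 7.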

How the data were processed

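Libraries were made with SMART-seq v4 and NexteraXT from sorted cells, per the labels' protocols. The values are RPKM as the authors deposited them; reads were aligned with STAR to mm10, per the submitters' processing notes, and no source used here gives the counting, the annotation or any scaling between libraries, so depth is unknown. From them log2(RPKM + 1) was computed and a model of 6 group means over 21 libraries, with a trended variance, was fitted with limma 3.58.1 in R 4.3.3. Of 11628 genes, 11496 reached 1 RPKM in at least 3 libraries, all 85 members among them; 132 were left out. Tests were two-sided, with Benjamini-Hochberg adjustment over the 11496 genes and a threshold of 0.05. The script was tested on simulated data.

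Members and lists were chosen with earlier results of these data known. Genes were named from lists of subunit roles, Diamond-Blackfan anaemia genes and paralogues, the genes called, the 3 largest differences where none was called, and the 3 highest and 3 lowest levels. Alternatives changed the pseudocount, filter, scaling, weights, covariates and libraries. Same-numbered libraries deviated together in every pair in wild-type CLP and MPP4, with correlations from 0.217 to 0.271. They also did so in mutant MPP4 and HSC, from 0.121 to 0.330, so the blocked fit is printed for both. The pairing comes from the titles' numbers, and whether a number is 1 mouse is not stated. The block has 1 term for each number and genotype over all populations. Mutant number 4 thus joins a 10-week-old CLP library with 12-week-old HSC and MPP4 libraries. Results for some single genes are not reported here.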

Additional observations from a re-analysis of the deposited data

Results flagged for a closer look

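The samples that stood far from the others of their group, by the gap to the nearest value as a part of the group's range, numbered 6 in 147 groups of 4 mutant libraries; chance gives about 1 in 20. Of these, 4 were low values of mutant MPP4 replicate 1. Rpl26 stood at 60.5 RPKM there, against 78.3 to 79.2 in the other libraries. Rpl35 stood at 444 against 586 to 601. Rps19 stood at 265 against 338 to 344, and Rps28 at 287 against 384 to 402. All 4 are Diamond-Blackfan anaemia genes, a list from which many of the genes examined were drawn, and in this library 83 of the 85 genes lay below their group mean. Rpl7l1 was high in mutant HSC replicate 3, at 80.0 RPKM against 68.4 to 70.03. The ratio of small to large subunit sums was high in mutant HSC replicate 2, at 0.718 against 0.699 to 0.701.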

How the results depend on the processing

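Of 130 counts of called ribosomal protein genes under other settings, 107 stayed within 1.5 times the count reported. With a library left out, 77 of 91 did. Counts between genotypes and for the differences of differences stayed at 0. At most 0.217% of all genes were called in those comparisons, so these counts had little room to move. All counts that moved lay in the steps between populations given below. Of 130 medians, 128 moved by less than the spread between replicates, 0.19 log2 units. The exceptions were the 12-week-old mice alone, which gave a median of 0.037 for HSC between genotypes and 0.032 for the difference of differences between CLP and HSC. The spread is wider than the genotype medians themselves, -0.16, -0.17 and 0.13. A genotype median that vanished would still be counted as unmoved, so this count cannot show that they hold. From HSC to MPP4 in wild type the count was 0 with a mean of at least 5 RPKM, 3 with median-ratio scaling, 3 with quantile normalization, 2 when scaled to the sum of non-members, 6 with library weights, 0 with only the groups compared, 2 with sex and age terms, and 1 to 2 with a library left out. From MPP4 to CLP in wild type it was 1 with the mean filter, 1 with median-ratio scaling, 1 with only the groups compared, 1 in 12-week-old mice and 1 with any library left out. From HSC to MPP4 in the mutant it was 1 with the mean filter, 4 with median-ratio scaling, 9 with quantile normalization, 1 with only the groups compared, 1 in 12-week-old mice and 1 to 2 with a library left out. From MPP4 to CLP in the mutant it was 0 with the mean filter, 2 with median-ratio scaling, 2 with sex and age terms and 1 to 2 with a library left out. The mean filter removes Rpl3l, and the fit of only the groups compared removes it from HSC to MPP4; other causes were not tested.

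With the replicate block the count was 4 from MPP4 to CLP in wild type and 4 from HSC to MPP4 in the mutant. The lowest correlations of same-numbered libraries were 0.217 and 0.121 there, and 6 of 6 and 7 of 8 libraries correlated best with their own number. In the other steps the block gave 5 from HSC to MPP4 in wild type and 2 from MPP4 to CLP in the mutant. In the first of these 6 of 6 libraries correlated best with their own number, but 1 of 3 pairs was at 0.0941. In the second 5 of 8 did. A replicate block left all counts between genotypes at 0. Depth is unknown, so counting error could not be given.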
